A study of Mus musculus with 25 samples.

Results

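Transcripts of cytotoxic T cells and natural killer (NK) cells were followed in the livers of mice that lack Mcl-1 in hepatocytes. The 9 genes were taken as a list (Cd8a, Cd8b1, Cd3e, Cd3g, Cd4, Gzma, Gzmb, Prf1 and Nkg7), and 8 of them had a probe that could be matched by its accession, out of 17016 symbols on the array. Cd8b1 is named only. Where a gene had more than 1 probe, the probe with the highest mean processed signal over the 25 arrays stood for it. The values of the members played no part in choosing them, but the list was written with other results of these arrays known.

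The tissue was full liver homogenate of untreated mice, and each array held 1 sample. At 2 months of age there were 3 Mcl-1 ko, 3 Mcl-1 hemizygous and 2 wild type mice. At 8 months there were 3 Mcl-1 ko mice, each with a tumor (hepatocellular carcinoma, HCC) and non-tumor liver from the same animal. At 12 months there were 4 Mcl-1 ko mice, again with tumor and non-tumor liver of each, and 3 wild type mice. No wild type mouse of 8 months was among the samples, so non-tumor liver of that age has no genotype control. All ko livers of 8 and 12 months came from animals with a tumor. Tumor bearing therefore cannot be told apart from age in ko mice, nor from genotype against wild type liver of 12 months. The deletion is named as specific to hepatocytes. The Cre driver and the sex of the animals are not given in the sources used here. A homogenate holds RNA of all its cells, and more T or NK cells cannot be told apart from more RNA of these genes per cell.

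A cytotoxic T cell recognises its target through the T cell receptor, whose signal is carried by the CD3 chains, and the co-receptor CD8 binds the major histocompatibility complex (MHC) class I molecule that presents the peptide. Killing is done by granules: perforin opens the way into the target cell and granzymes, serine proteases, start its death inside. NK cells carry the same granules without a rearranged receptor, and the liver is known for its resident NK and T cell populations. CD4 marks helper T cells and, in the mouse, some dendritic cells.

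Levels are log2 processed signal minus the 75th percentile of the array, so a level of 0 is a signal equal to that percentile. Changes are differences of levels, with the standard error (SE) or 95% confidence interval of limma's fit, with p adjusted over every feature tested in a comparison (Benjamini-Hochberg). The share of probes well above background was 60.2% to 76.3% on 24 arrays and 84.8% on that of wild type animal 641. Arrays lay on 8 slides scanned on 2 days. The slides with non-tumor ko liver of 12 months held only these livers and tumors of the same animals. Those with non-tumor ko liver of 8 months held no array of another age. Slide therefore cannot be told apart from genotype or age where these livers are compared with wild type liver, ko liver of 2 months or each other. The arrays of wild type animals 552 and 1110 (12 months) and of the tumor of animal 1347 made up the second day. Mcl1 checked the labels: its level was 1.46 to 3.06 on the arrays of ko mice, 3.20 to 3.58 on those of hemizygous mice and 3.88 to 4.5 on those of wild type mice. Hepatocyte markers were the highest of the marker lists in every group, with mean levels of 6.81 to 7.57.

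The co-receptor Cd8a (chromosome 6, 71373427 to 71379171; all positions are those of RefSeq on GRCm38.p6) had the largest change of the members in ko liver of 12 months. In non-tumor ko liver of 12 months its level was -1.99, -1.48, -0.67 and -0.88 in animals 1109, 638, 702 and 793. In wild type liver of 12 months it was -2.99 and -3.27 in animals 552 and 641, and -5.66 in animal 1110, where the probe was not well above background. The groups did not overlap, and the lowest ko animal lay 1 log2 unit above the highest wild type animal. At 2 months the level was -3.57, -3.44 and -3.55 in ko mice (animals 137, 64 and 69), -5.20, -5.28 and -4.34 in hemizygous mice and -4.29 and -4.43 in wild type mice (animals 31 and 34, the first not well above background). The ko values of that age lay close together and above those of both other genotypes.

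The CD3 gamma chain gene Cd3g (chromosome 9, 44969572 to 44980431) ran alongside Cd8a. Its level was -2.44, -2.60, -1.29 and -1.10 in non-tumor ko liver of 12 months (animals 1109, 638, 702 and 793), against -3.33, -2.59 and -4.55 in wild type liver of that age (animals 552, 641 and 1110). Animal 641 reached the range of the ko livers, and the other wild type livers lay below it. At 2 months Cd3g averaged -4.06 ± 0.25 in ko (SD, n = 3), -4.74 ± 0.26 in hemizygous (n = 3) and -4.52 ± 0.22 in wild type mice (n = 2).

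The CD3 epsilon chain gene Cd3e (chromosome 9, 44998735 to 45009663), which lies close to Cd3g on the chromosome and whose protein pairs with its product, did not track it on these arrays. Its level at 2 months was -2.56 and -3.42 in ko mice (n = 2, since the spot of animal 64 carried an outlier mark), -2.49, 0.08 and -1.47 in hemizygous mice and 0.74 and -1.96 in wild type mice. The highest level of all 25 arrays was thus in a wild type mouse of 2 months, whose Cd3g was not well above background. At 12 months Cd3e was -0.58, -1.36, -0.93 and -0.37 in non-tumor ko liver (animals 1109, 638, 702 and 793), against -1.73, -2.56 and -1.62 in wild type liver (animals 552, 641 and 1110), without overlap. The correlation of Cd3e with Cd3g over the arrays was 0.07. Cd3e rests on 1 probe, so a second reading was not at hand.

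Granzyme B (Gzmb, chromosome 14, 56258836 to 56262334) had levels of -0.66, -0.93, -1.74 and -1.69 in non-tumor ko liver of 12 months (animals 1109, 638, 702 and 793). Wild type liver of that age had -2.43, -2.62 and -5.21 (animals 552, 641 and 1110). The groups did not overlap. At 2 months the values of the genotypes lay among each other, at -3.37 ± 0.25 in ko, -3.77 ± 0.23 in hemizygous and -3.49 ± 0.50 in wild type mice (SD, n = 3, 3 and 2).

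Granzyme A (Gzma, chromosome 13, 113093824 to 113100981), the other main granzyme of NK and T cells, was dimmer. Non-tumor ko liver of 12 months had -2.19, -3.83, -4.05 and -2.60 (animals 1109, 638, 702 and 793), against -3.62, -3.84 and -6.27 in wild type liver (animals 552, 641 and 1110, the last not well above background). Only animals 1109 and 793 lay above all wild type animals of 12 months. Perforin (Prf1, chromosome 10, 61297751 to 61304684) was the dimmest member, well above background on 17 of 25 arrays and on none of the 3 hemizygous arrays. Its level was -6.55, -4.15, -4.46 and -3.49 in non-tumor ko liver of 12 months (animal 1109, the lowest, not well above background), against -4.35, -2.46 and -5.17 in wild type liver. Its highest value of all arrays was that of wild type animal 641, the array with the most probes above background.

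Nkg7 (chromosome 7, 43437138 to 43438246), a membrane protein of cytotoxic granules, was the brightest of the killing genes. Its level was -0.93, -0.30, 0.66 and 0.98 in non-tumor ko liver of 12 months (animals 1109, 638, 702 and 793), against -0.33, -0.44 and -2.35 in wild type liver (animals 552, 641 and 1110). These groups overlapped. At 2 months it was -1.34, -1.51 and -1.59 in ko, -2.53, -2.41 and -2.93 in hemizygous and -2.14 and -2.81 in wild type mice, with all ko values above the rest.

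Cd4 (chromosome 6, 124864693 to 124888247) had another order of groups, with the highest means at 2 months: -2.65 ± 0.29 in ko (SD, n = 3), -2.73 ± 0.31 in hemizygous (n = 3) and -2.71 ± 0.14 in wild type mice (n = 2). Non-tumor ko liver averaged -3.04 ± 0.46 at 8 months (n = 3) and -3.50 ± 0.31 at 12 months (n = 4). Its 3 lowest arrays were the 3 of the second scan day, with -4.67 in the tumor of animal 1347 and -5.17 and -4.37 in wild type animals 552 and 1110, against -3.93 to -1.64 on the first day. The part of the scan day in the Cd4 values was not tested apart from the tissue and genotype of those 3 samples. The Cd4 probe lay in 10 spots per array, which differed by an SD of 0.355 on the log2 scale at the median array and 0.106 to 1.037 over the arrays.

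**Figure D1:**
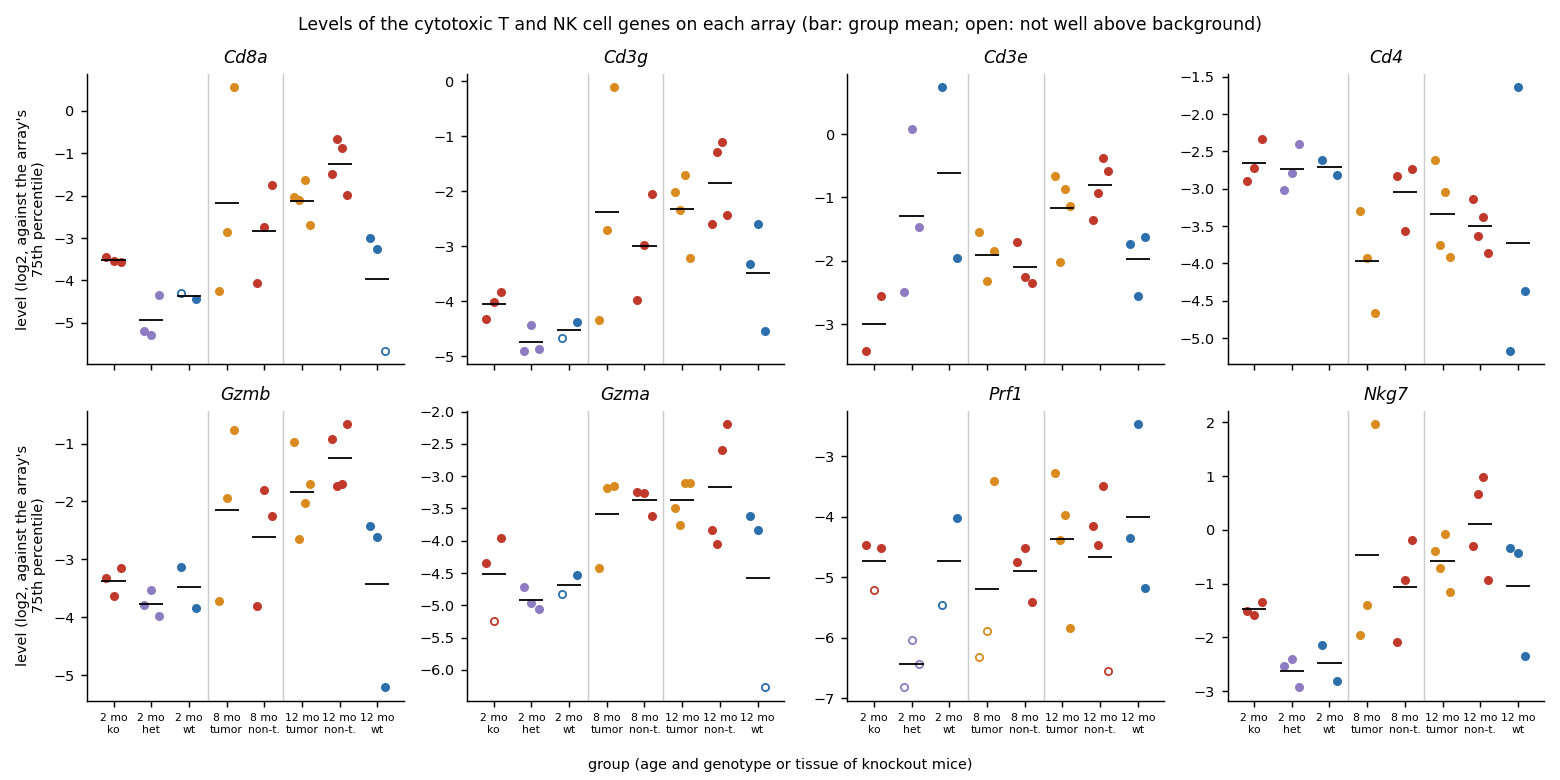
Level of each of the 8 measured members on each array (y axis, log2 against the array's 75th percentile) by group (x axis; ko, het and wt of 2 months, then tumor and non-tumor liver (non-t.) of ko mice at 8 and 12 months, then wt of 12 months). Points are arrays, bars group means, and open points were not well above background; Cd8a in non-tumor ko liver of 12 months lies between -1.99 and -0.67, above all wild type and all 2-month arrays.

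In rank order of the group means, non-tumor ko liver of 12 months came first for Cd8a, Cd3g, Gzma, Gzmb and Nkg7, and hemizygous liver of 2 months last. Neighbouring groups in that order overlapped nearly everywhere. For Cd8a, for example, non-tumor ko liver of 12 months (-1.25 ± 0.60, n = 4) was followed by tumor of 12 months (-2.12 ± 0.44, n = 4), tumor of 8 months (-2.18 ± 2.47, n = 3), non-tumor liver of 8 months (-2.85 ± 1.16, n = 3) and ko liver of 2 months (-3.52 ± 0.07, n = 3). Wild type liver of 12 months (-3.97 ± 1.47, n = 3) and of 2 months (-4.36 ± 0.10, n = 2) and hemizygous liver (-4.94 ± 0.52, n = 3) came after (all SD), and the ranges of each pair of neighbours overlapped. The gaps without overlap between neighbours were ko over wild type liver of 2 months for Nkg7 (0.99) and Cd3g (0.46), and non-tumor ko liver of 8 months over ko liver of 2 months for Cd3e (0.89). Cd3e had only 2 values in ko liver of 2 months, and the share of all features without overlap was not counted for that comparison.

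Loss of Mcl-1 in young mice was the first comparison. At 2 months 6 of 8 members had a positive change in ko against wild type liver, with a median of 0.14, and the median over all features was -0.01. Nkg7 differed by 0.99 (95% interval -0.44 to 2.42) and Cd8a by 0.84 (-0.73 to 2.40), and Cd3e by -2.38 (-4.18 to -0.58, adjusted p = 0.43). Cd8a, Cd3g and Nkg7 were higher in every ko array than in either wild type array, 3 of 8 members, where 17.5% of all features did the same. No member passed the threshold of 0.05 in limma's test; 0.0259% of features did, and 1 member (Cd3e) had an unadjusted p under 0.05, as had 8.9% of features. Against hemizygous liver 7 of 8 members lay above 0 with a median of 0.54, and 4 (Cd8a, Cd3g, Prf1 and Nkg7) were higher without overlap, against 16.1% of features. Cd3e, with only 2 values in ko liver, was lower without overlap there (-1.69) and against wild type liver, against 9.57% and 19.3% of features. None passed there either (0.0518% of features did; 3 members, Cd3e among them, had an unadjusted p under 0.05, as had 8.3% of features). Prf1 was not well above background in any hemizygous liver, so its difference has no measured size. In hemizygous against wild type liver all 8 changes lay at or below -0.02, none passed (0% of features did) and none had an unadjusted p under 0.05.

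Markers of other leukocytes had larger median changes than the members at 2 months. The pan-leukocyte markers lay above 0 in 7 of 7 (median 1.45, among them Coro1a at 1.55, SE 0.57), with a summed signal, in multiples of the array's 75th percentile, of 11.8 to 12.7 in ko, against 4.84 to 6.65 in hemizygous and 4.31 to 5.63 in wild type mice. Macrophage markers lay above 0 in 12 of 12 (median 1.25), led by the lipid receptor Trem2 at 3.65 (SE 0.96). Of the neutrophil markers 7 of 8 lay above 0 (median 2.21), led by the calprotectin subunits S100a9 at 3.95 (SE 0.67) and S100a8 at 4.71 (SE 0.80), both with adjusted p = 0.053. Against hemizygous liver both rose, S100a8 by 4.99 (SE 0.71) and S100a9 by 4.22 (SE 0.60), each with adjusted p = 0.025 in limma's test. S100a8 averaged -6.93 in hemizygous and -6.65 in wild type liver. Both lie below the -6.43 of Prf1 in hemizygous liver, where no array was well above background. The sizes of the S100a8 changes are therefore uncertain. Chemokines that draw T cells, with their receptors, lay above 0 in 12 of 13 (median 1.05), with Ccl3 at 2.42 (SE 0.76), Ccl4 at 2.16 (SE 0.68) and Cx3cr1 at 2.41 (SE 0.78). No gene of these lists passed against wild type liver over all features. The other T cell genes lay above 0 in 17 of 20 (median 0.70), among them the transcription factor Lef1 at 1.97, NK receptors in 12 of 15 (median 0.56) and the effector list in 11 of 16 (median 0.34). MHC class I presentation genes lay above 0 in 3 of 11 (median -0.31) and hepatocyte markers in 2 of 8 (median -0.27). The part of the other leukocytes in the members' values was not tested.

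At 12 months Cd8a, Gzmb and Cd3g had the largest differences of the members, and none passed the test. In non-tumor ko against wild type liver 7 of 8 changes were positive, with a median of 1.28 where all features had -0.09. Cd8a differed by 2.72 (SE 0.61, 95% interval 1.41 to 4.03; 6.59-fold; adjusted p = 0.10), Gzmb by 2.16 (0.87 to 3.46; 4.48-fold; adjusted p = 0.13) and Cd3g by 1.63 (0.54 to 2.73; 3.10-fold; adjusted p = 0.15). Gzma differed by 1.41, Cd3e by 1.16 and Nkg7 by 1.14, with adjusted p of 0.23 to 0.38, while Cd4 stood at 0.22 and Prf1 at -0.67. None of these passed in limma's fit as used here; 0.0185% of all features did. At an unadjusted p under 0.05 there were 4 members and 17.3% of all features. Cd8a, Cd3e and Gzmb did not overlap, 3 of 8 members, where 5.44% of all features were higher in every ko array than in any wild type array. The values rest in part on wild type animal 1110, where Cd8a and Gzma were not well above background. Without it the change was 1.88 for Cd8a, 1.27 for Gzmb, 0.57 for Gzma and 0.49 for Nkg7.

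Which members passed depended on settings. Without non-tumor animal 638, Cd8a (2.80, adjusted p = 0.023) and Cd3g (1.88, adjusted p = 0.041) passed, and so did 10.6% of all features. With variance trend and robust fit Cd8a was the 1 member that passed (2.72, adjusted p = 0.044), with 1.11% of features. Normexp with quantile normalisation and the deposited matrix both had Cd8a (0.80 and 2.18) and Gzmb (0.77 and 1.74) past the threshold, with adjusted p of 0.033 to 0.047, where 1.57% and 0.847% of features passed. Over all alternatives the Cd8a change was 0.80 to 3.21 with adjusted p from 0.023 to 0.54, and never below 0. On the first scan day wild type animal 641 is the one wild type array of 12 months. Against it the ko mean was higher by 2.01 for Cd8a, 1.74 for Cd3e, 1.36 for Gzmb, 0.73 for Cd3g, 0.68 for Gzma and 0.54 for Nkg7. It was lower for Prf1 (-2.21) and Cd4 (-1.86). With scan day as a block the comparison rests on that 1 wild type array, the one with the most probes above background. Cd4 was the member past the threshold in that fit (-1.86, adjusted p = 0.022, against 0.022 to 0.99 over its alternatives), where 12% of all features passed.

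**Figure D2:**
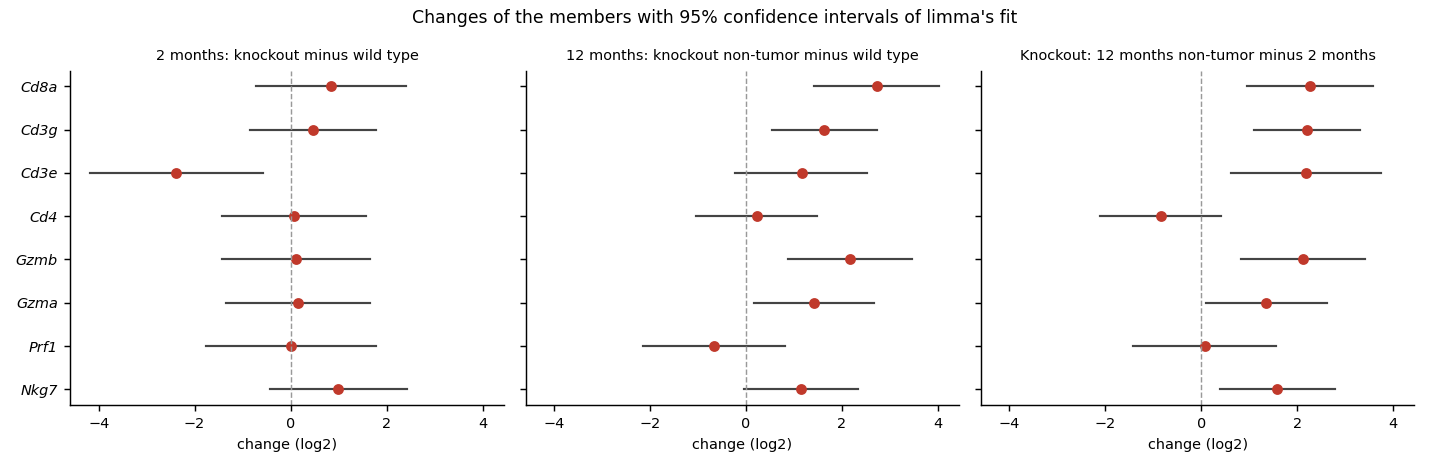
Change of each measured member (points, log2 scale on the x axis) with the 95% confidence interval of limma's fit (lines) in 3 comparisons, with genes down the y axis. Against wild type liver of 12 months the intervals of Cd8a, Cd3g, Gzma and Gzmb lie above 0. In ko liver of 12 against 2 months those of Cd3e and Nkg7 do so as well. Against wild type liver of 2 months only that of Cd3e, on the negative side, leaves out 0.

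Most of the other T and NK cell genes lay above 0 at 12 months, like the members. Genes of T cell receptor signalling and the T cell surface lay above 0 in 18 of 20 (median 1.36): the adaptor Lcp2 differed by 1.75 (SE 0.44), the kinase Lck, which phosphorylates the CD3 chains, by 1.98 (SE 0.52) and Thy1 by 1.92 (SE 0.52). NK receptors lay above 0 in 12 of 15 (median 0.73), with Klrd1 (CD94) at 2.12 (SE 0.53), the signalling adaptor Tyrobp at 1.52 (SE 0.49) and Cd244a at 1.54 (SE 0.63). Of the other effector molecules and lineage regulators 12 of 16 lay above 0 (median 0.63), among them T-bet (Tbx21) at 1.35 (SE 0.48) and interferon gamma (Ifng) at 1.53 (SE 0.65). The chemokine list had 12 of 13 above 0 (median 1.33), with Cxcl10 at 1.86 (SE 0.53) and the receptors Cxcr3, to which CXCL10 binds, at 1.90 (SE 0.55) and Cxcr6 at 1.83 (SE 0.53). Checkpoint and regulatory T cell genes were split, 7 of 12 above 0 (median 0.32), with the inhibitory ligand Cd274 (PD-L1) at 1.58 (SE 0.39) and Havcr2 (TIM-3) at 2.24 (SE 0.66). MHC class I presentation genes had a median of 0.17, with the peptidase Erap1 at 0.90 (SE 0.28). None of the genes in these lists passed over all features, and the lists were written with earlier results of these arrays known. Mean list levels overlapped between the genotypes, with a wide range in wild type liver. T cell genes had -4.51 to -2.45 in wild type and -2.87 to -1.71 in non-tumor ko liver. NK receptors had -5.89 to -3.50 and -4.36 to -3.37, and the effector list -3.82 to -2.04 and -3.36 to -2.02. List changes without wild type animal 1110 are not given here.

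Markers of other leukocytes differed by list at 12 months, and none passed. Neutrophil markers were split, 5 of 8 above 0 (median 0.31). Pan-leukocyte markers lay above 0 in 7 of 7 (median 1.23), with a summed signal of 16.5 to 30.4 in non-tumor ko liver and 4.41 to 12.9 in wild type liver, and Ptprc, which encodes CD45, stood at 2.14 (SE 0.60). Macrophage markers lay above 0 in 12 of 12 (median 1.33), with a summed signal of 137 to 342 in ko and 30.2 to 122 in wild type liver. B and plasma cell markers had a median of 0.46 (9 of 11 above 0) and hepatocyte markers one of -0.42 (2 of 8 above 0). The mean level of the B and plasma cell list overlapped, at -4.59 to -2.23 in wild type and -3.75 to -2.41 in non-tumor ko liver. The part of these in the members' values was not tested.

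Wild type animal 1110 had the lowest mean level over the members of any array (-4.40, against -2.99 in animal 552 and -2.43 in animal 641) and of the pan-leukocyte markers (-1.24, against 0.53 and 0.25). The spread of the wild type mice of 12 months was accordingly wide, with an SD of 1.47 for Cd8a and 1.56 for Gzmb, against 0.60 and 0.54 in non-tumor ko liver.

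**Figure D3:**
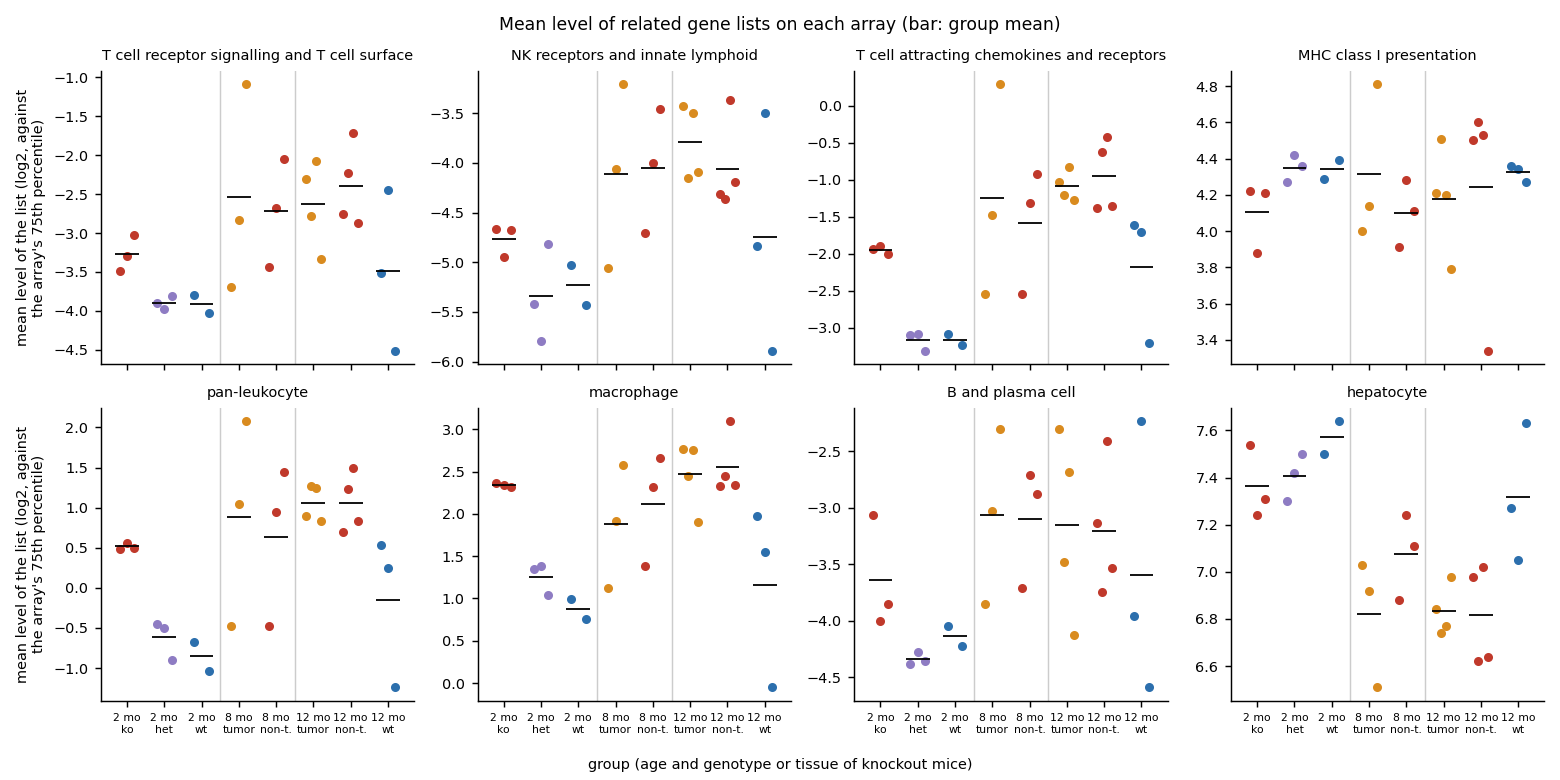
Mean level of 8 related gene lists on each array (y axis, log2 against the array's 75th percentile) by group (x axis as for the member levels). Points are arrays and bars group means; the T cell, pan-leukocyte and macrophage lists have their lowest array in wild type animal 1110 of 12 months, whose pan-leukocyte mean is -1.24.

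Age was compared within genotypes. In ko mice the older livers were those of animals with a tumor, so age and tumor bearing cannot be told apart there. In non-tumor ko liver of 12 months against ko liver of 2 months 7 of 8 changes were positive, with a median of 1.84 (-0.07 over all features): Cd8a 2.27 (95% interval 0.96 to 3.58), Cd3g 2.20 (1.1 to 3.30), Cd3e 2.18 (0.62 to 3.74), Gzmb 2.11 (0.82 to 3.41) and Nkg7 1.58 (0.39 to 2.78). Each of these 5 was higher on all 12-month arrays than on all 2-month ko arrays with a value, where 6.72% of all features were. Cd3e had only 2 values in ko liver of 2 months. Gzma stood at 1.35, Prf1 at 0.07 and Cd4 at -0.85. Adjusted p was 0.20 to 0.97, so none passed in the fit of all 6 groups; 0.0074% of features did, and 6 members against 17.4% of features had an unadjusted p under 0.05. In a limma fit of these 7 arrays alone 4 members passed, Cd8a (adjusted p = 0.021), Gzmb (0.023), Cd3g (0.033) and Cd3e (0.036). The changes were the same, 5.28% of all features passed, and Cd3e lacked the value of ko animal 64. Cd3g was the member that passed in the 6-group fit without wild type animal 641 (2.20, adjusted p = 0.036; 3.21% of features) or without non-tumor animal 638 (2.45, adjusted p = 0.034; 3.15% of features). Cd4 was lower on all 12-month arrays than on all 2-month arrays, as were 13.6% of features. Of the other lists, T cell genes lay above 0 in 15 of 20 (median 0.98, with the kinase Lck at 1.73 and the interleukin receptor Il7r at 2.49) and chemokines in 11 of 13 (median 1.24, with Ccl5 at 2.23). The checkpoint list lay above 0 in 10 of 12 (median 0.59, with Pdcd1, which encodes PD-1, at 2.07). For Pdcd1 the ageing change in wild type liver was 3.28. Macrophage markers were split, 6 of 12 above 0 (median 0.11), and pan-leukocyte markers lay above 0 in 5 of 7 (median 0.64). None of these passed.

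In non-tumor ko liver of 8 months the means of Cd8a, Cd3g, Gzmb and Nkg7 lay between these ages, with a larger SD than at either. Cd8a was -1.74 in animal 1347, -2.74 in animal 1287 and -4.05 in animal 934, and Nkg7 was -0.19, -0.94 and -2.08 in the same order of animals. Animal 934 was below the level of the ko mice of 2 months for both, and animal 1347 reached the range of the 12-month livers. Against ko liver of 2 months 6 of 8 changes were positive (median 0.72), none passed (0% of features did) and none had an unadjusted p under 0.05. At 12 against 8 months 7 of 8 were positive (median 1.15), with Cd8a at 1.59 (0.28 to 2.90), Gzmb at 1.36 (0.07 to 2.65), Cd3e at 1.29 and Nkg7 at 1.17. Without animal 934 the Cd8a value was 0.99. None passed there either, nor did any feature, and 3 members had an unadjusted p under 0.05 (5.2% of features). Cd3e and Gzmb did not overlap between these ages, where 2% of features were higher at 12 months without overlap.

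In wild type liver the ageing change had a median of 0.24 over the members, with 6 of 8 above 0. Nkg7 differed by 1.43 (0.00 to 2.86), Cd3g by 1.03 (-0.28 to 2.34) and Cd8a by 0.38 (-1.18 to 1.95). No member passed (0.0407% of features did), and 1 had an unadjusted p under 0.05, as had 10.6% of features. Cd4 differed by -1.01, and by -2.05 (adjusted p = 0.0086, from 0.0086 to 0.92 over its alternatives) without animal 641, where 6.11% of features passed. The arrays that then remain for wild type liver of 12 months are those of the second scan day. With all arrays, chemokines lay above 0 in 12 of 13 in wild type ageing (median 0.86) and T cell genes in 15 of 20 (median 0.55). Checkpoint genes lay above 0 in 8 of 12 (median 0.40), with Pdcd1 at 3.28 (1.53 to 5.03). Pdcd1 averaged -7.02 in wild type liver of 2 months, below Prf1 in hemizygous liver (-6.43), so this size is uncertain. No gene of these lists passed.

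Whether the ko effect itself was larger at 12 than at 2 months was tested as an interaction. The ko livers of 12 months came from animals with a tumor, so this difference cannot tell age from tumor bearing. The difference of the ko effects was 1.88 for Cd8a (-0.16 to 3.92), 2.05 for Gzmb (0.03 to 4.06), 1.25 for Gzma, 1.17 for Cd3g and 0.15 for Nkg7. For Cd3e it was 3.53 (1.27 to 5.80, adjusted p = 0.46), of which -2.38 is the value at 2 months that rests on 2 arrays a group. No member and no feature (0%) passed, and 2 members had an unadjusted p under 0.05, against 9.6% of features.

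Tumors were compared with the non-tumor liver of the same animal in 7 animals. The mean paired changes of the members were small, from -0.30 for Cd4 to 0.04 for Prf1, with a median of -0.12 (-0.02 over all features). For Cd8a the change was -0.21 (-1.09 to 0.68), for Gzmb -0.12 (-0.77 to 0.52), for Cd3g 0.00 (-0.78 to 0.78) and for Nkg7 -0.13 (-0.98 to 0.72), so differences of up to about these bounds remain possible in either direction. No member and no feature (0%) passed limma's test, and no member had an unadjusted p under 0.05. The other lists gave medians near 0 as well: -0.08 for T cell genes (8 of 20 above 0), 0.04 for NK receptors, 0.05 for chemokines and 0.06 for pan-leukocyte markers.

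The animals differed from each other behind these means. In animal 1347 the tumor had a Cd8a level of 0.56 and the non-tumor liver one of -1.74, a difference of 2.30, and Nkg7 (2.16), Prf1 (2.01), Cd3g (1.94) and Gzmb (1.48) were higher in that tumor too. Its summed signal over the members was 7.43, the highest of all 25 arrays, and its pan-leukocyte mean of 2.08 was so as well. The tumor was scanned on the second day and its non-tumor partner on the first, so that day and tissue cannot be told apart in this animal. In the other animals of 8 months Cd8a differed by -0.11 (animal 1287) and -0.19 (animal 934), and Prf1 by -1.35 and -1.56, with Prf1 not well above background in both tumors.

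In all 4 animals of 12 months the tumor had the lower Cd8a, by -0.71, -0.56, -1.45 and -0.74 in animals 1109, 638, 702 and 793. Tumor levels were -2.70, -2.04, -2.11 and -1.62, against -1.99, -1.48, -0.67 and -0.88 in the non-tumor liver. Gzmb (-1.02, -0.04, -0.91 and -0.32) and Nkg7 (-0.22, -0.09, -1.37 and -1.05) were also lower in each of the 4 tumors, and 4.16% of all features were. Cd3g was lower in 3 of 4, Cd3e in 3 of 4, Gzma in 2, Cd4 in 2 and Prf1 in 1. The mean over the 4 animals was -0.86 ± 0.39 for Cd8a, -0.68 ± 0.63 for Nkg7 and -0.57 ± 0.47 for Gzmb (SD, n = 4), and over the 3 animals of 8 months 0.67 ± 1.42, 0.61 ± 1.37 and 0.48 ± 0.88.

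The difference between the ages was -1.53 for Cd8a (-2.98 to -0.09, adjusted p = 0.80), -1.29 for Nkg7, -1.08 for Cd3g and -1.05 for Gzmb, and 1.09 for Cd4 (0.05 to 2.13). It did not pass for any member or feature (0%), and 2 members had an unadjusted p under 0.05, against 6.1% of features. Without animal 1347 the difference was -0.71 for Cd8a, -0.52 for Nkg7, -0.42 for Cd3g, -0.55 for Gzmb and 0.58 for Cd4. With each animal left out in turn the Cd8a value was -1.96 to -0.71. T cell genes of the wider list had a median of -0.47 (4 of 20 above 0), with Thy1 at -0.88 (SE 0.30), Cd3d at -1.26 (SE 0.46) and Lck at -1.33 (SE 0.51). MHC class I presentation genes were below 0 in 11 of 11 (median -0.41). The effector list (5 of 15 above 0) held the death ligand Tnfsf10 at -1.11 (SE 0.33), the cathepsin Ctsw at -1.16 (SE 0.36) and Ifng at -1.29 (SE 0.53). Tumors of 12 months against those of 8 months differed by -0.12 (Nkg7) to 0.83 (Prf1). No member and no feature (0%) was past the threshold, and no member had an unadjusted p under 0.05. Prf1 was well above background in 1 of 3 tumors of 8 months, so the size of its difference is uncertain.

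**Figure D4:**
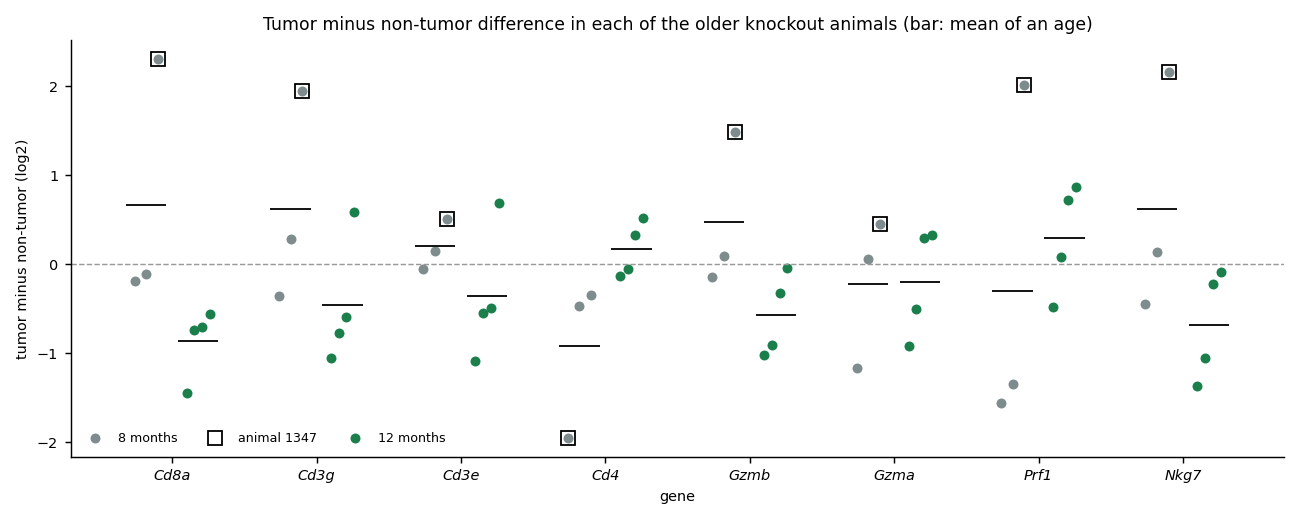
Tumor minus non-tumor difference (y axis, log2) of each measured member (x axis) in each of the 7 older ko animals, 3 of 8 months (grey) and 4 of 12 months (green), with bars at the mean of an age and squares around animal 1347. The 4 animals of 12 months lie below 0 for Cd8a, Gzmb and Nkg7, and animal 1347 lies at 2.30 for Cd8a.

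The members did not form a single unit across the 25 arrays. Cd8a, Cd3g, Nkg7 and Gzmb correlated with each other at 0.78 to 0.95 (Pearson r over arrays that share processing and, for 14 of them, animals). Gzma correlated with these 4 at 0.63 to 0.81 and Prf1 at 0.33 to 0.61. Cd3e correlated with no other member above 0.22, and Cd4 with none above 0.09, being negative with Cd8a (-0.30), Cd3g (-0.31) and Nkg7 (-0.35). These are descriptions across groups, so part of each value is the difference between groups.

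**Figure D5:**
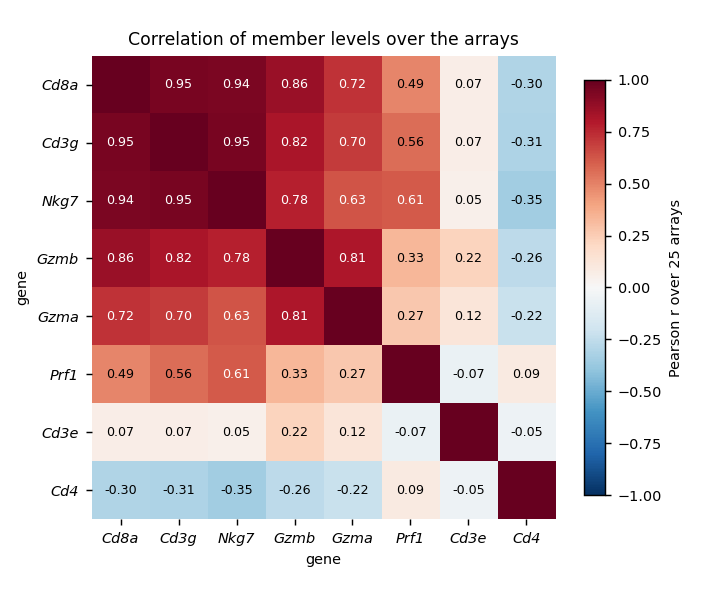
Pearson correlation of the members' levels over the 25 arrays, with genes on both axes and the value in each cell. Cd8a, Cd3g, Nkg7 and Gzmb form a block of 0.78 and above, and Cd3e and Cd4 stand outside it.

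Second probes gave like readings of the ko against wild type changes where there were any. For Cd8a in non-tumor ko against wild type liver of 12 months the other probes had 2.42 (A_52_P443334, in 10 spots per array) and 2.02 (A_52_P150547) beside 2.72. For Nkg7 the other probe (A_51_P499195) had 1.25 beside 1.14 there, and 1.18 beside 0.99 at 2 months. In the change of ko liver with age the dimmest Cd8a probe had 0.80 where the others had 2.27 and 2.10, and it was well above background on 19 of 25 arrays. In the mean tumor minus non-tumor difference over both ages the other Cd8a probes had 0.00 and -0.03 beside -0.21. For Nkg7 the other probe had -0.03 beside -0.13 there.

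The genes whose pattern was most like the mean of the members' standardised levels were Fasl (r = 0.92 over 25 arrays), the death ligand of cytotoxic cells, Xcl1 (0.91), a chemokine of T and NK cells, Rinl (0.91), Rgs14 (0.90), H2-Oa (0.90), Skap1 (0.89), Gpr171 (0.88), Lat (0.88), Cd3d (0.88) and Fcmr (0.88), out of 13251 candidates. Over the 18 arrays without tumor Fasl came first again (0.92) and Ccl5 (0.90) and the B cell receptor chain gene Cd79b (0.89) were among the first 10. The score is that of all 8 members, and each member is part of it, which raises a member's own correlation by construction. Cd8a (0.91) and Cd3g (0.92) were close to the score, and Cd4 (-0.08) and Cd3e (0.27) were not.

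Because Cd8a, Cd3g, Gzmb and Nkg7 had like patterns, the 250 bases before the annotated start of each are shown, 5′ to 3′ in the gene's direction (RefSeq, GRCm38.p6). The positions are chr6:71373177-71373426, plus strand for Cd8a, chr9:44980432-44980681, minus strand for Cd3g, chr14:56262335-56262584, minus strand for Gzmb and chr7:43436888-43437137, plus strand for Nkg7. Capitals mark matches on either strand to 4 short motifs: TGTGGT (the core that RUNX factors bind), AGGAAG (ETS factors), AGGTGT (T-box factors such as T-bet) and TGANTCA (AP-1).
Cd8a: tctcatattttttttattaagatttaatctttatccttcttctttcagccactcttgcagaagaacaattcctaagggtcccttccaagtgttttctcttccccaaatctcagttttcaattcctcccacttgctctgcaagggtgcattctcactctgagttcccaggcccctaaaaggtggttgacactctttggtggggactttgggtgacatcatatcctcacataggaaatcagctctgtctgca
Cd3g: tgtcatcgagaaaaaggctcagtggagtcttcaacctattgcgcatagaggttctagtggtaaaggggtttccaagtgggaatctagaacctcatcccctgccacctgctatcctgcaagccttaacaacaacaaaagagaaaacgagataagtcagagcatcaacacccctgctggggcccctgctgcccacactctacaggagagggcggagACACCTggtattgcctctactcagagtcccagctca
Gzmb: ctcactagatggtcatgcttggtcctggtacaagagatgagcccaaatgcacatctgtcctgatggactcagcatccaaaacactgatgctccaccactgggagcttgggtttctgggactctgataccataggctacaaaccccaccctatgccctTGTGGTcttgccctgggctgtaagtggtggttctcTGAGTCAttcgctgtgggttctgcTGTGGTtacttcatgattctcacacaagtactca
Nkg7: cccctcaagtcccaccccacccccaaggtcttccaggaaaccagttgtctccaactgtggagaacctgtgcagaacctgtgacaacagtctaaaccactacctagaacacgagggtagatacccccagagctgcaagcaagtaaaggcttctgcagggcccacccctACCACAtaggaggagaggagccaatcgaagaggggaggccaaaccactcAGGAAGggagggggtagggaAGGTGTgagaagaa

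Gzmb held the RUNX core at 2 places, beginning 93 and 34 bases before the start, and the AP-1 motif at 1. Nkg7 held the RUNX, ETS and T-box motifs once each. Cd3g held the T-box motif once and Cd8a none of the 4, which says only that these letters are not in this window. Among the 7 members with a promoter in the table (Cd4 and Cd8b1 are named only), 4 held the RUNX core, 3 the ETS motif, 5 the T-box motif and 1 the AP-1 motif. Of all 32851 windows of the same length 14%, 29.5%, 11.8% and 6.7% held them, in that order. The matches are descriptions of sequence, and no binding was measured here.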

How the data were processed

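RNA of 25 liver samples was labelled with Cy3 and hybridised to single-colour Agilent arrays, per the labels' protocols. The deposited array files hold spot intensity values written by Agilent Feature Extraction, per the file headers; background had been subtracted from the processed signal, with no step across arrays. A matrix of log2 values was deposited too, whose ranks followed the uncorrected median signal on every array (lowest Spearman correlation 0.99998) with medians of 6.56 to 6.58; its normalisation is not given in the sources used here. Among tools, limma is named in the submitters' processing notes.

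From the intensities, log2 processed signal was averaged over the spots of a probe without outlier mark (41174 probes, 43379 spots) and the array's 75th percentile was subtracted. Accessions matched to RefSeq (GRCm38.p6) named 24375 probes (59.2%), and 16799 stayed in the tests unnamed. Features well above background on at least 2 of 18 arrays (without tumor), 3 of 14 (pairs) or 3 of 7 (tumors) were tested with limma 3.58.1 in R 4.3.3 (lmFit, eBayes, two-sided), adjusted by Benjamini and Hochberg at 0.05. The 18 arrays formed 6 groups in 1 model. Pairs had the animal as a block, since the labels give tumor and non-tumor tissue the same animal number. The fit was also checked on simulated data with set changes, after the fits of the arrays had been run. P values measure the spread between animals, or for pairs the spread of the tumor minus non-tumor differences of the animals. The small number of arrays limits precision.

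Members and gene lists were chosen with earlier results of these data known. All members are named; from each other list up to 3 genes with the smallest p, and the 10 genes most correlated with the members' mean. Cd79b and Ccl5 were picked out of the 10 for arrays without tumor after their values were seen. The files have no mean signal, so the normexp alternative (offset 50) used median signal and median background. Other alternatives were quantile normalisation, the log2 matrix, other filters, the mean of all probes, other samples in the fit, slide or scan day as a block, trend and robust options and leaving out each array or animal. Where slides did not connect the groups compared, slide entered as a random effect, which does not take it out of the change.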

Additional observations from a re-analysis of the deposited data

Results flagged for a closer look

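Of 24 groups of 4 to 7 values examined for a sample far from the others, 3 were picked out, all of them tumor minus non-tumor differences of animal 1347 (8 months). Chance picks out about 1 in 20 groups, and the members are not independent of each other. Its Cd8a difference of 2.30 lay above those of the other 6 animals, which were -1.45 to -0.11. Its Nkg7 difference of 2.16 lay above -1.37 to 0.13 in the others. Its Cd4 difference of -1.95 lay below -0.47 to 0.52 in the others. The tumor array of this animal was scanned on the second day and the non-tumor array on the first, and tissue and day cannot be told apart in it.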

How the results depend on the processing

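No member passed in any of the 12 comparisons in the fit used, and under the alternatives 303 counts stayed at 0 and 11 did not. In non-tumor ko against wild type liver of 12 months 2 members passed with normexp and quantile normalisation, 2 with the series matrix, 1 with trend and robust options and 1 with scan day as a block, and 0 to 2 when single arrays were left out (2 without non-tumor animal 638). In these fits 1.57%, 0.847%, 1.11%, 12% and 10.6% of all features passed, in that order. In non-tumor ko liver of 12 months against ko liver of 2 months it was 2 with normexp, 1 with scan day as a block, 4 with only the arrays compared, and 0 to 1 with arrays left out (1, Cd3g, without wild type animal 641 or non-tumor animal 638), where 0.489%, 3.21%, 5.28%, and then 3.21% and 3.15% of all features passed. In wild type liver of 12 against 2 months it was 0 to 1 (1, Cd4, without animal 641, with 6.11% of features). Changes of Cd8a, Cd3g, Gzmb, Gzma, Cd3e and Nkg7 in ko against wild type liver of 12 months kept a positive sign under every alternative run. None of the alternatives separates slide from group here, because these ko and wild type arrays shared no slide. Normexp lowered the sizes most (Cd8a 0.80 against 2.72), and the cause was not tested.

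The changes that turned sign were mostly near 0. With normexp these were Cd4 (-0.04 at 2 months, -0.06 at 12 months, -0.02 for the difference of the ko effects), Prf1 at 2 months (-0.02) and the tumor difference between ages for Gzma (-0.09) and Prf1 (-0.03). With quantile normalisation they were Cd4 (-0.02) and Prf1 (-0.10) at 2 months and Gzma (-0.28) between tumor ages, and with the series matrix Cd4 (-0.07) and Prf1 (-0.08) at 2 months, Cd4 at 12 months (-0.02) and Gzma between tumor ages (-0.21). With scan day as a block Cd4 was -1.86 at 12 months, -1.93 for the difference of the ko effects and 1.08 for wild type ageing (2.07 with slide as a block), and Nkg7 was -0.45 for the difference of the ko effects. With slide or scan day as a block, which sets animal 1347 aside, the paired tumor change was -0.32 for Cd3g and -0.29 for Prf1.

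Leaving out single arrays or animals, ko against wild type liver at 2 months ranged over -0.10 to 0.19 for Cd4, -0.12 to 0.53 for Gzma, -0.24 to 0.47 for Gzmb and -0.72 to 0.72 for Prf1. At 12 months it was -0.50 to 1.26 for Cd4 and -1.26 to 0.10 for Prf1. Wild type ageing gave -0.11 to 1.23 for Cd8a, -0.38 to 0.94 for Gzma, -0.43 to 0.96 for Gzmb and -0.03 to 1.46 for Prf1. In ko liver Prf1 gave -0.32 to 0.70 for 12 against 2 months and -0.16 to 0.86 for 12 against 8 months, where Gzma gave -0.12 to 0.50. The difference of the ko effects gave -0.56 to 1.2 for Cd4, -1.39 to 0.10 for Prf1 and -0.50 to 0.50 for Nkg7. Paired tumor changes gave -0.25 to 0.04 for Cd3e, -0.32 to 0.18 for Cd3g, -0.39 to 0.03 for Gzmb, -0.29 to 0.31 for Prf1 and -0.51 to 0.08 for Nkg7, and the tumor difference between ages -0.46 to 0.35 for Gzma and -0.03 to 1.76 for Prf1. Without the animal as a block the paired changes were the same (Cd8a -0.21) and 0 members passed, so the pairing changed no call. Prf1, Gzma and the wild type values of Cd8a lay near background, which limits their sizes.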
